A study of Mus musculus with 12 samples.

Results

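Liver metabolic enzyme genes were examined for R-loop peaks in a mouse hepatoma line and in mouse liver. The set holds 28 of 21887 protein-coding genes on chromosomes 1 to 19, X and Y. They were chosen by name as enzymes of the urea cycle and of amino acid, glucose and fat breakdown, several of them targets of gene therapy. A gene held a peak when a deposited interval overlapped its body, or 1 kb on either side, in the RefSeq annotation of GRCm38. The series title names its question, the influence of R-loops on editing of genomes by adeno-associated virus (AAV) vectors. It comprised 12 libraries in 6 groups of 2: DNA precipitated with S9.6, an antibody to RNA-DNA hybrids, the same after RNase H1, which degrades the RNA of a hybrid, and input DNA, from HEPA1-6 cells and from liver. Both sources are labelled wild type and untreated. HEPA1-6 is an established hepatoma cell line. The liver came from C57/Bl6 mice, whose age, sex and number the labels do not give. Each source had 1 peak list, named as a merged immunoprecipitate against an input, so there was no spread between replicates, and no difference between the lists has a replicate check. RNase H1 treated libraries and single libraries were not analysed here, and the depth of sequencing is unknown.

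An R-loop forms when newly made RNA anneals back to its template and leaves the other DNA strand unpaired. Such structures are known for transcribed genes, above all near CpG island promoters and near transcript ends. The enzymes studied here carry out the work that sets hepatocytes apart from most cells: they turn ammonia into urea, break down amino acids, store and release glucose, oxidise fatty acids and run the methionine cycle. Loss of several of them causes inborn errors of metabolism, such as ornithine transcarbamylase deficiency (Otc) and tyrosinaemia (Fah).

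Most of these genes held no peak. In HEPA1-6, 5 of 28 (17.9%, 95% exact interval 6.06 to 36.9%) held one, against 42.0% of all protein-coding genes. In the liver-labelled list, 5 of 28 (17.9%, 6.06 to 36.9%) held one, against 29.7%. Both lists had a peak at Gstz1, Sds, Pklr and Cpt1a, which is 4 of 28, against 27.8% of all protein-coding genes. Asl held a peak in HEPA1-6 only and Fah in the liver-labelled list only. The remaining 22 genes had none in either list: Cps1, Otc, Ass1, Arg1, Nags, Tat, Hpd, Hgd, Tdo2, Hal, Pck1, Fbp1, G6pc, Gys2, Pygl, Khk, Ehhadh, Mat1a, Gnmt, Bhmt, Aldh1l1 and Adh1. The interval of the members included the share of all genes in the liver-labelled list. In HEPA1-6 it lay below that share, but not under every rule for counting. With flanks of 5 kb, 8 members (28.6%, 13.2 to 48.7%) held a HEPA1-6 peak against 46.3% of all genes, and with the higher-scoring 50% of the list 5 members did against 33.5%, within both intervals. Intervals cover counting error over genes only, and a peak under the authors' threshold would not be listed.

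**Figure D1:**
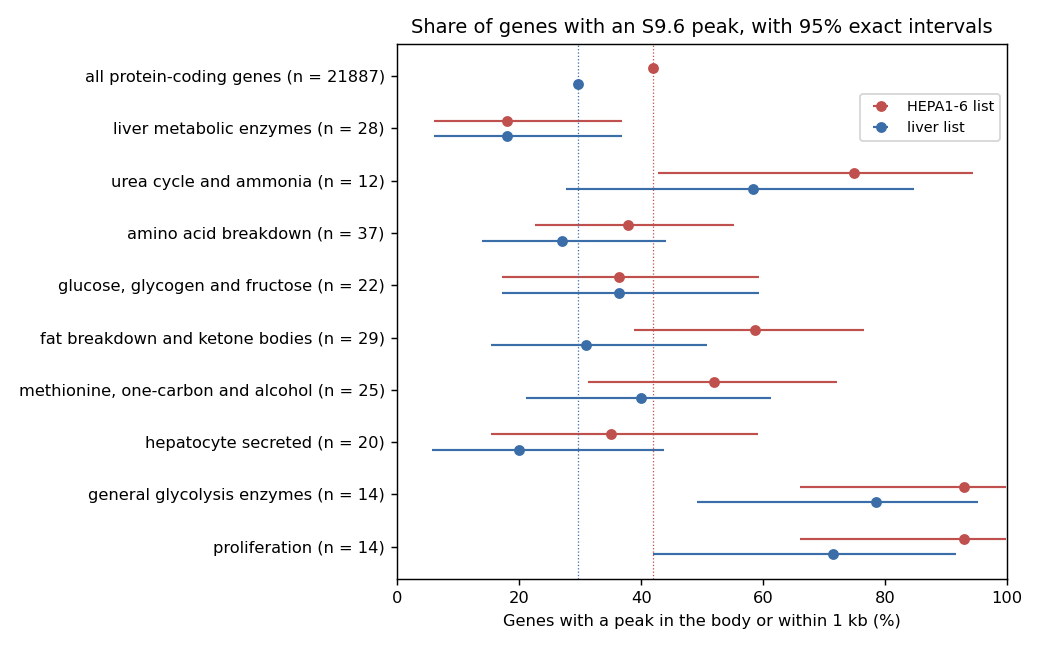
Share of genes with a peak in the body or within 1 kb (horizontal axis, %) for the enzyme genes, 5 lists of related metabolic genes and 3 lists set beside them; points are shares in the HEPA1-6 list (red) and the liver-labelled list (blue), bars are 95% exact intervals, and dotted lines are the shares of all protein-coding genes. The enzyme genes stood at 17.9% in both lists, against 42.0% and 29.7% of all genes.

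The lists as a whole set the frame for these counts. The HEPA1-6 list held 28717 peaks with a median width of 1091 bp, and the liver-labelled list 14908 with a median of 881 bp. Of 20 genes for proteins that hepatocytes secrete, 4 (5.73 to 43.7%) held a liver-labelled peak (Alb, Trf, Hpx and Rbp4), an interval that included the 29.7% of all genes. Of 14 proliferation markers, 10 (71.4%, 41.9 to 91.6%) did. In HEPA1-6, where the share of all genes was 42.0%, these counts were 7 of 20 (15.4 to 59.2%) and 13 of 14 (66.1 to 99.8%). These 2 sets of genes also differ in the CpG content of their promoters, given below, and its part in the contrast was not tested. Whether the liver-labelled list holds what its label says was not tested either, and this limit applies to every liver-labelled value below. Of the markers of other liver cells, peaks of the liver-labelled list lay at 2 of 8 Kupffer cell and macrophage genes, 0 of 8 endothelial genes, 1 of 8 stellate cell genes and 1 of 6 bile duct cell genes, and in HEPA1-6 at 2, 0, 2 and 1. A peak is not a measure of expression, and the part of any other cell type in the enzyme counts was not tested. All peaks at enzyme genes carried a strand, which 4.1% of all HEPA1-6 peaks and 15.3% of all liver-labelled peaks lacked. No enzyme gene lies on chromosome 15. Gpt, Agxt2 and Csad, related metabolic genes named below, do lie on chromosome 15.

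Promoter sequences were taken from RefSeq windows of 300 bp (GRCm38.p6), which run from 250 bases before to 50 after a transcription start and were found for 22 of the 28 genes, with 24 windows in all. Asl, Arg1, Cps1, Gys2, Mat1a and Sds had no window. The windows below are shown because a peak lay within 1 kb of them in at least 1 list (Fah, Gstz1 and Cpt1a), or because, among the genes without a peak, they held the most and the fewest CpG dinucleotides (Ass1 and Otc). They are written 5′ to 3′ along the gene, with each CpG (the letters CG, which read the same on both strands) in capitals.
Fah, chr7:84605893-84606192, minus strand: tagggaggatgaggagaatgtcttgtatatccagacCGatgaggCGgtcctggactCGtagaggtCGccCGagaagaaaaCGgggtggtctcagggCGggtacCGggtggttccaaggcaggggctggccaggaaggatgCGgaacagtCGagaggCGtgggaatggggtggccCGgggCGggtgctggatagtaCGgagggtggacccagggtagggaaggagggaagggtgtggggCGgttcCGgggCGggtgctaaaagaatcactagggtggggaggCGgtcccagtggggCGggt
Gstz1, chr12:87146915-87147214, plus strand: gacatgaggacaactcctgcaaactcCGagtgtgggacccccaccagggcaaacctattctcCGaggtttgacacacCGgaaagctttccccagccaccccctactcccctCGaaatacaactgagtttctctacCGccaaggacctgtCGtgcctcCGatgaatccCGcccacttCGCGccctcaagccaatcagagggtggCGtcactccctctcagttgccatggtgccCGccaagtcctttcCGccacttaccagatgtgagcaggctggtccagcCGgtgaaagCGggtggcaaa
Cpt1a, chr19:3323051-3323350, plus strand: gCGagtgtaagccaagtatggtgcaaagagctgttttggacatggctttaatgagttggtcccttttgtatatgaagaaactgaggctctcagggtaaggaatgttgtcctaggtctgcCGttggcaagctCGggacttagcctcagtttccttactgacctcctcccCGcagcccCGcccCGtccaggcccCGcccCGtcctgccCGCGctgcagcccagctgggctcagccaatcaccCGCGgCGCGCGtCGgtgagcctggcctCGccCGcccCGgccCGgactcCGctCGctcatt
Ass1, chr2:31470020-31470319, plus strand: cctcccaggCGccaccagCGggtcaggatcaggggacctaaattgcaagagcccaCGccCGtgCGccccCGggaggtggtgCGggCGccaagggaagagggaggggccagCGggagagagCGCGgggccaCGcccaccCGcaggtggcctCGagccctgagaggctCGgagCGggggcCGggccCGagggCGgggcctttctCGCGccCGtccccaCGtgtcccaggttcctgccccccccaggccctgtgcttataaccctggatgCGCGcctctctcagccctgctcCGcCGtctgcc
Otc, chrX:10252055-10252354, plus strand: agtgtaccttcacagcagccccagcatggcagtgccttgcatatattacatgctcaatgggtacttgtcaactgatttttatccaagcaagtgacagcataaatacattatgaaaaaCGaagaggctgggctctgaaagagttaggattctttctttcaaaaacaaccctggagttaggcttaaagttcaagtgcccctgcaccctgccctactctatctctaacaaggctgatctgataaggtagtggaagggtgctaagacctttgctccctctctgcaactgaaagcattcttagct

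The windows of Fah, Gstz1, Cpt1a, Ass1 and Otc held 19, 15, 22, 27 and 1 CpG, respectively. At least 1 CpG was present in 94.6% of all 32851 windows, with a median of 7. The Ass1 window was the richest in GC of all 24 (74.0%), and the nearest peak lay 100829 bp away in HEPA1-6 and 202554 bp in the liver-labelled list. The Fah window differed from the others in skew: the excess of G over C, divided by their sum, was 0.47, above that of 99.6% of all windows. Skew was 0.41 at Fbp1, whose nearest peak lay 351 kb away in both lists, and -0.21 and -0.10 in the printed windows of Gstz1 and Cpt1a.

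The CpG content of the promoters was then compared with that of all genes. A gene was counted as CpG-rich when a window had a GC content of at least 50% and an observed over expected CpG ratio of at least 0.6. This held for 6 of 22 members with a window (27.3%, exact interval 10.7 to 50.2%): Ass1, Khk, Fah, Pygl, Gstz1 and Cpt1a. Gstz1 lay just inside the limit with a ratio of 0.60 and Nags just outside it with 0.58. Among all 17492 protein-coding genes with a window the share was 48.3%, within that interval. For the medians, the highest ratio and, separately, the highest GC content among the windows of a gene were taken. The median ratio was 0.39 over the members and 0.61 over all genes, and the median GC content 57.5% and 57.3%. Of all CpG-rich genes, 66.1% were covered in HEPA1-6 and 47.0% by liver-labelled peaks, and of the others 20.2% and 13.7%. Of the 6 CpG-rich members, 2 were covered in HEPA1-6 (Gstz1 and Cpt1a) and 3 by liver-labelled peaks (these and Fah). Of the 16 other members with a window, 1 (6.25%) held a peak in each list, which was Pklr. Ass1, Khk and Pygl were CpG-rich without a peak in either list.

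**Figure D2:**
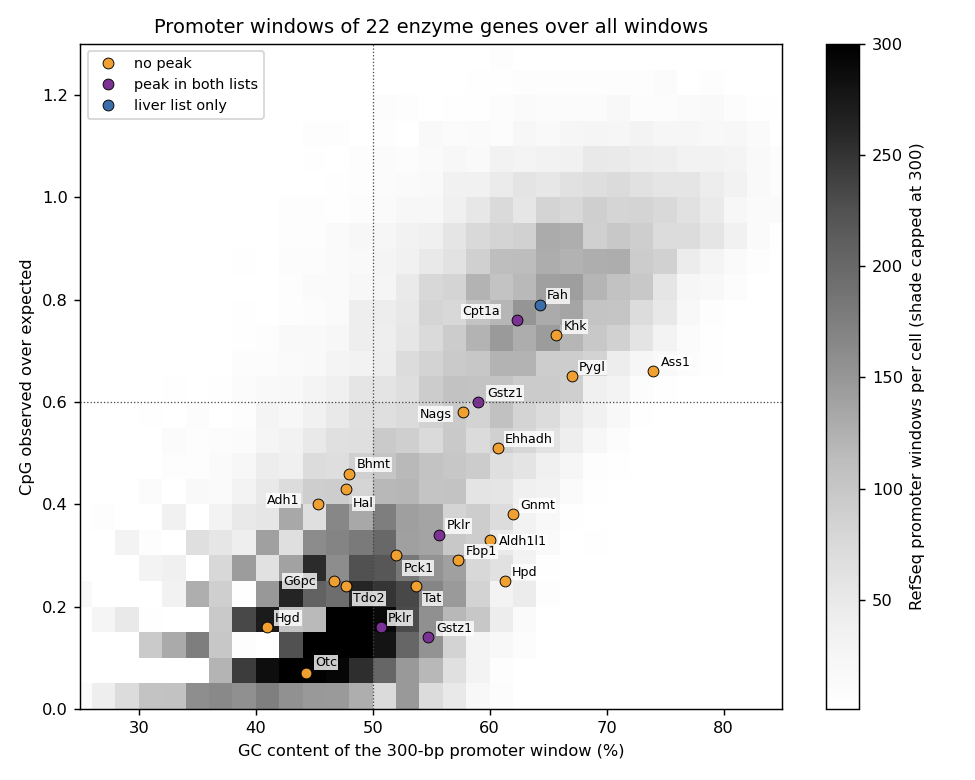
GC content (horizontal axis, %) and observed over expected CpG ratio (vertical axis) of the 24 promoter windows of 22 enzyme genes, coloured by the lists in which the gene held a peak, over the density of all 32851 RefSeq windows in grey; dotted lines mark 50% GC and a ratio of 0.6. The windows of Fah, Cpt1a and Gstz1 lie with Khk, Pygl and Ass1 in the upper right, and most members lie below 0.6.

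The median gene length was 18.5 kb, against 17.2 kb over all protein-coding genes. The members lay closer to the middle of the range: 15 of 28 (53.6%, all genes 29.5%) measured 10 to 30 kb, a class in which all genes held HEPA1-6 peaks in 49.0% of cases and liver-labelled peaks in 33.0%. Of those 15 members, 3 held a HEPA1-6 peak (Asl, Gstz1 and Pklr) and 3 a liver-labelled peak (Fah, Gstz1 and Pklr). Of the 5 members under 10 kb (Pck1, Khk, Sds, Nags and Gnmt) Sds alone held a peak, in both lists, where the shares of all genes were 30.1% and 21.7%. Of the 8 over 30 kb Cpt1a alone did, also in both, where these shares were 48.5% and 35.2%.

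The urea cycle, which turns ammonia into urea, was without a peak except at Asl. Cps1 and Otc, which catalyse its mitochondrial steps, and Nags, which makes the activator of Cps1, had none, and neither had Ass1, which joins citrulline to aspartate, nor Arg1, which releases urea. Asl, the lyase that splits argininosuccinate, held 2 HEPA1-6 peaks and 0 liver-labelled peaks. The wider peak (chr5:130009449-130013434, 3986 bp) scored 22, at percentile 54.8 of its list, and spanned the lower-coordinate boundary of the gene. The other (chr5:130020944-130022523, 1580 bp) lay inside the gene and scored 14, at percentile 15.7. The pair covered 28.6% of the gene, the largest share of any enzyme gene in either list, and both peaks were on the minus strand. In the liver-labelled list the nearest peak was 7158 bp away, at Crcp, with a score of 13. For the cycle as a whole the count was 1 of 6 genes (0.421 to 64.1%) in HEPA1-6 and 0 of 6 (0 to 45.9%) in the liver-labelled list. Both intervals included the shares of all genes, 42.0% and 29.7%, so 6 genes cannot show that the cycle differs from other genes.

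Cps1 and Otc were the most isolated genes of the cycle. For Cps1 the nearest HEPA1-6 peak lay 268 kb away, at Acadl, and the nearest liver-labelled peak 1870 kb away, at Pikfyve. For Otc, on the X chromosome, these distances were 341 and 395 kb. Arg1 stood at the other end, with peaks 2504 bp away in HEPA1-6 cells and 6143 bp away in the liver-labelled list. Those peaks lay over Med23, a subunit of the Mediator complex, and scored 31 and 32. Peaks near Nags lay at Tmem101 (5940 bp away, HEPA1-6) and Lsm12 (11893 bp, liver-labelled).

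Among the enzymes of tyrosine breakdown, the first 3 in order of action (Tat, Hpd and Hgd) held no peak, while the last 2 (Gstz1 and Fah) did. The counts were 1 of 5 (0.505 to 71.6%) in HEPA1-6 and 2 of 5 (5.27 to 85.3%) in the liver-labelled list. Both intervals included the shares of all genes, 42.0% and 29.7%. Gstz1, which isomerises maleylacetoacetate, held 3 HEPA1-6 peaks, none of which overlapped its 1 liver-labelled peak. The HEPA1-6 peaks were narrow (421, 408 and 383 bp), scored 14, 21 and 20, and lay 13220, 14704 and 17482 bp from the 5′ boundary, toward the 3′ end. They carried the plus strand, which is the strand of Gstz1. The liver-labelled peak (chr12:87146997-87148054, 1058 bp) spanned the 5′ boundary instead, overlapped the promoter window printed above, and scored 16, at percentile 22.2. It carried the minus strand, that of Pomt2, a protein mannosyltransferase gene whose body overlaps the start of Gstz1. The gene thus counted in both lists through peaks at its opposite ends and on opposite strands.

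Fah, the hydrolase that completes the pathway, held 1 peak, in the liver-labelled list. It was the narrowest peak at any enzyme gene (chr7:84605220-84605505, 286 bp), and with a score of 44, at percentile 88.5, the highest-scoring of the 6 in its list. It lay 437 bp inside the gene from the 5′ boundary and 388 bp from the promoter window, on the minus strand of Fah, and overlapped no other gene. In HEPA1-6 the nearest peak was 10.5 kb away, at Zfand6, with a score of 34.

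Of the other enzymes of amino acid breakdown, Tdo2, which opens the ring of tryptophan, and Hal, which deaminates histidine, held no peak. Tdo2 lay 920 kb from the nearest HEPA1-6 peak, the largest distance of any enzyme gene in that list, and 304 kb from the nearest liver-labelled peak. Sds, which deaminates serine, held 1 peak in each list. Both began at position 120482691 of chromosome 5 and carried the plus strand. The HEPA1-6 peak ran to 120487158 (4468 bp, score 30) and the liver-labelled peak to 120484699 (2009 bp, score 22). Both reached into Plbd2, the gene next to Sds. Sds held 27.8% of the bases of the HEPA1-6 peak and 61.8% of those of the liver-labelled peak. Its position was thus the same in both lists, at the higher-coordinate end of the gene.

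No enzyme of glucose production or glycogen held a peak. With 0 of 3 (0 to 70.8%) and 0 of 2 genes (0 to 84.2%) in each list, the intervals included the shares of all genes, 42.0% and 29.7%. Pck1 and Fbp1, which drive gluconeogenesis, and G6pc, which frees glucose from its phosphate, were empty in both lists, as were Gys2, the liver glycogen synthase, and Pygl, the liver glycogen phosphorylase. Fbp1 lay 351 kb from the nearest peak in both lists. For G6pc that distance was 25.4 kb in both lists, to peaks that began at the same base and scored 20 and 12. Around Gys2 the nearest peaks lay at Golt1b in both lists, 19.1 and 23.0 kb away.

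Khk, which phosphorylates fructose, had no peak although its promoter was CpG-rich. The nearest peaks, 14.2 kb away at Ost4, ended at the same base and carried opposite strands. They scored 62 in the HEPA1-6 list and 46 in the liver-labelled list, each on its own scale. Pklr, the pyruvate kinase of liver and red cells, held 2 HEPA1-6 peaks and 1 liver-labelled peak. The same interval (chr3:89145470-89149773, 4304 bp) was listed in both. Its score was 49 among HEPA1-6 peaks, at percentile 90.2, and 26 among liver-labelled peaks, at percentile 64.0. This was the highest score at an enzyme gene in HEPA1-6. However, it carried the minus strand, opposite to Pklr, covered the 3′ boundary of Pklr, and had 31.3% of its bases in that gene. It reached into the adjoining Hcn3, a channel gene. The other HEPA1-6 peak (534 bp, score 15) lay inside Pklr on the plus strand of the gene.

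Cpt1a, which controls the entry of fatty acids into mitochondria, had the most peaks, with 4 in HEPA1-6 cells and 2 liver-labelled ones, all on the plus strand of the gene. The first HEPA1-6 peak (chr19:3321498-3324878, 3381 bp, score 20) spanned the 5′ boundary and the promoter window. The next (573 bp, score 14) followed 3547 bp into the gene. Another (905 bp, score 13) lay 50014 bp in, where Gm36532 overlaps on the minus strand, and the last (2110 bp, score 23) spanned the 3′ boundary. Both liver-labelled peaks lay toward the 5′ end: one of 546 bp (chr19:3321498-3322043, score 24) ended 283 bp before the boundary, and one of 2134 bp (chr19:3324424-3326557, score 28) lay inside the gene. The promoter window lay between these liver-labelled peaks, 1008 bp from the nearer. Peaks were thus listed around the start of Cpt1a in both lists and at its 3′ end in HEPA1-6 only. Ehhadh, an enzyme of peroxisomal fat oxidation, held none, with nearest peaks 222 and 454 kb away.

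**Figure D3:**
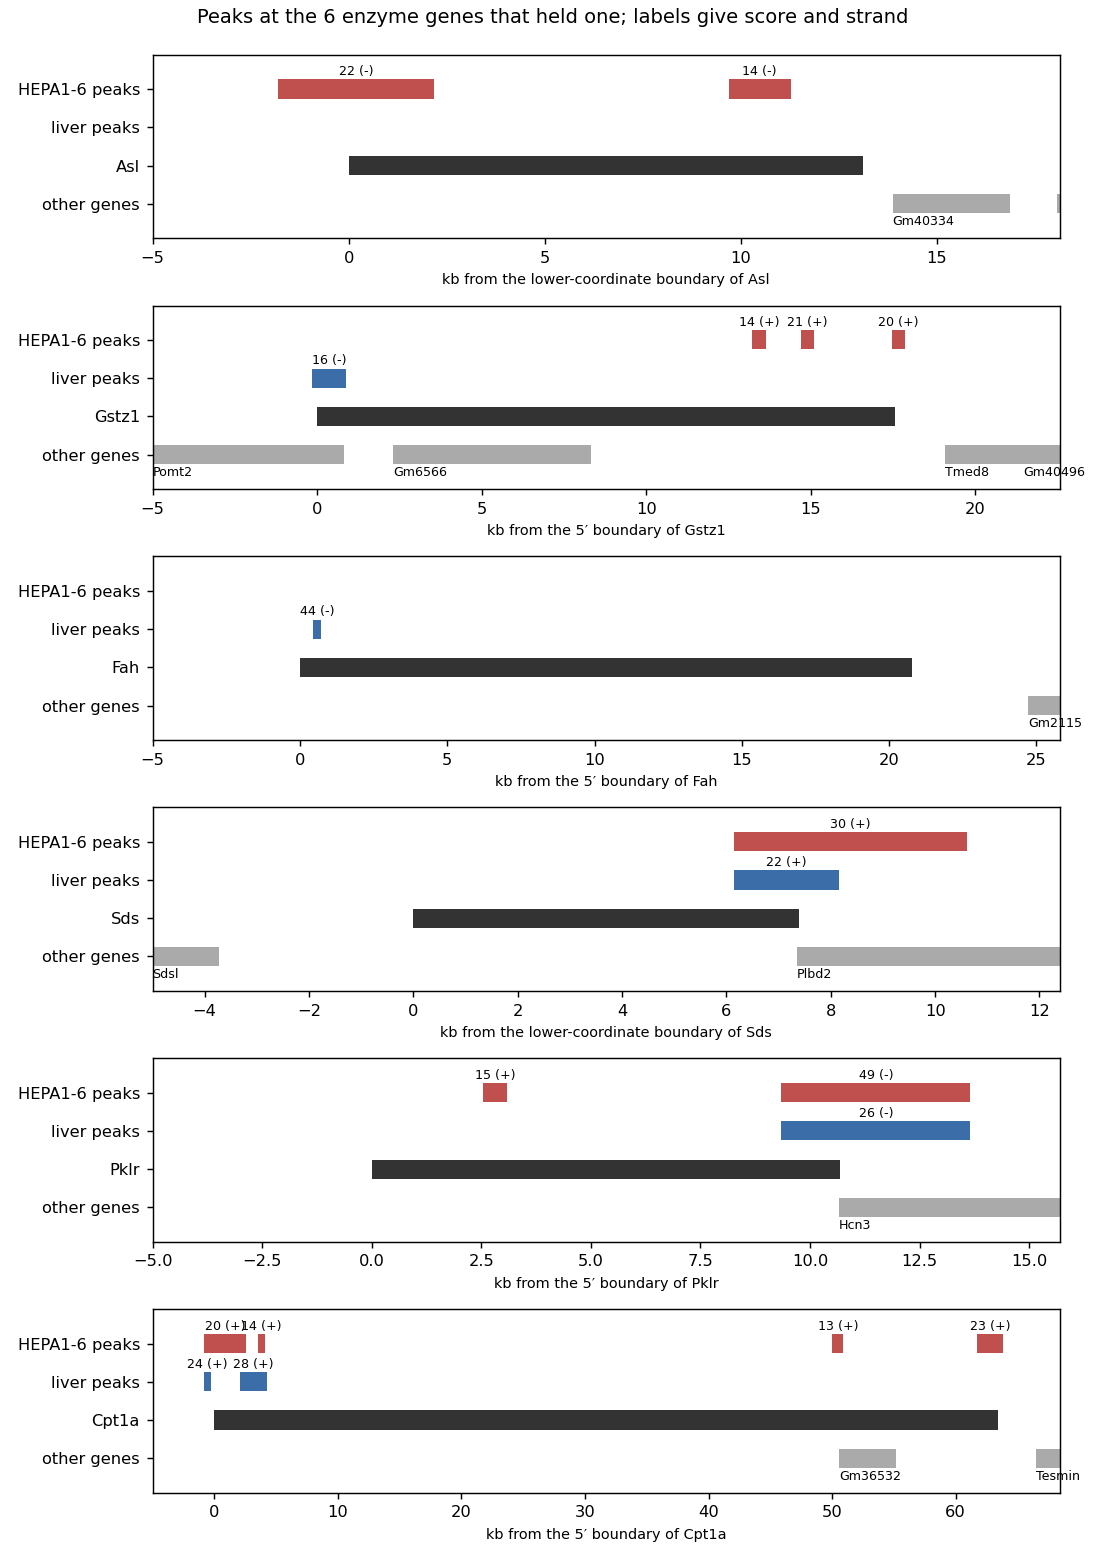
Maps of the 6 enzyme genes that held a peak, to scale within each panel, with distance in kb along the horizontal axis (from the 5′ boundary, or from the lower-coordinate boundary for Asl and Sds); red bars are HEPA1-6 peaks and blue bars liver-labelled peaks, labelled with score and strand, black is the enzyme gene and grey are other annotated genes. At Gstz1 the peaks of both lists lie at opposite ends of the gene, and at Pklr and Sds they run into the next gene.

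The methionine cycle and the remaining enzymes were also without peaks. With 0 of 3 (0 to 70.8%) and 0 of 2 genes (0 to 84.2%) in each list, these intervals too included the shares of all genes, 42.0% and 29.7%. Mat1a, which makes S-adenosylmethionine in liver, Gnmt, which consumes it, and Bhmt, which remakes methionine from homocysteine, held none, and neither did Aldh1l1, an enzyme of folate metabolism, nor Adh1, an alcohol dehydrogenase. Gnmt had the closest peaks of these, 5289 bp away at Cnpy3, which scored 38 in HEPA1-6 cells and 15 among liver-labelled peaks. A liver-labelled peak with a score of 11 lay 5.82 kb from Aldh1l1, while the nearest HEPA1-6 peak was 62.7 kb away. Bhmt and Adh1 were more than 100 kb from any peak in either list.

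In total 12 HEPA1-6 peaks and 6 liver-labelled peaks lay at enzyme genes. Their scores ran from 13 to 49 (median 20) among HEPA1-6 peaks, where the list had a median of 21. They ran from 16 to 44 (median 25) among liver-labelled peaks, where the list had a median of 22. Score scales are not stated and were not compared between lists. Of the member peaks, 4 of 12 and 4 of 6 scored above their list's median, so the peaks lay on both sides of it. Widths ran from 383 to 4468 bp and from 286 to 4304 bp.

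**Figure D4:**
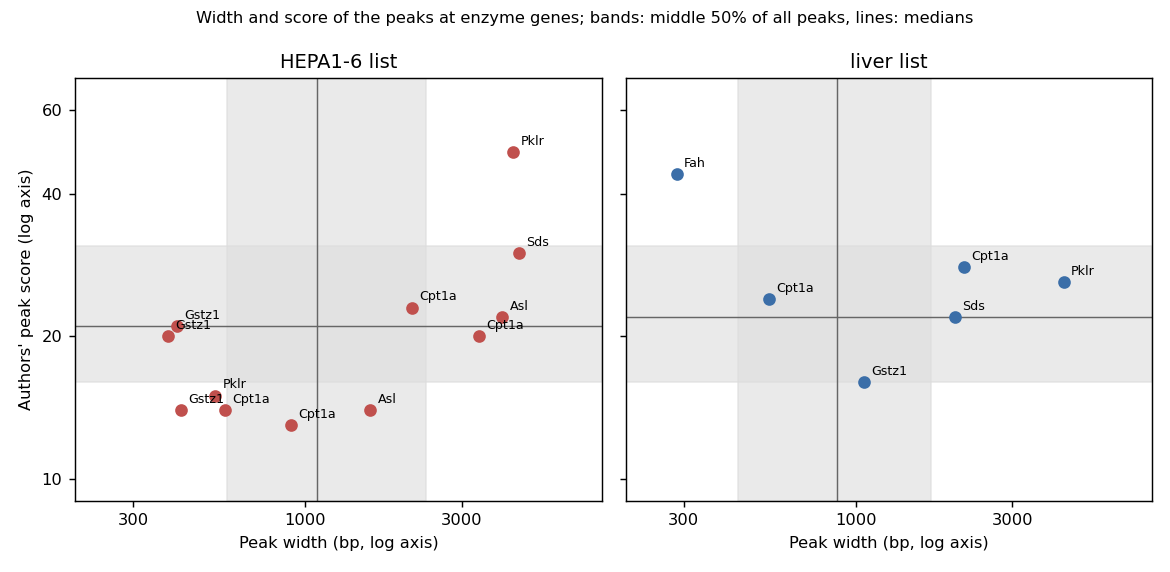
Width (horizontal axis, bp, log axis) and authors' score (vertical axis, log axis) of the 12 HEPA1-6 and 6 liver-labelled peaks at enzyme genes, each labelled with its gene; grey bands hold the middle 50% of all peaks of the list and lines mark the medians. Pklr leads the HEPA1-6 panel with a score of 49, and Fah the liver-labelled panel with 44 at a width of 286 bp.

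A further count asked which peaks carried the strand of the enzyme gene itself. Of the 22 members with a strand in the promoter table, 3 held a HEPA1-6 peak on their own strand (Gstz1, Pklr and Cpt1a) and 2 a liver-labelled peak (Fah and Cpt1a). Among all 17492 protein-coding genes with a strand these shares were 37.3% and 25.3%. Peaks that overlapped no other annotated gene were found at 4 members in HEPA1-6 (Asl, Gstz1, Pklr and Cpt1a) and at 2 in the liver-labelled list (Fah and Cpt1a). All genes met that condition in 31.8% and 21.9% of cases, and the intervals of the members (4.03 to 32.7% and 0.877 to 23.5%) included those shares. Cpt1a was the sole member that met either condition in both lists.

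Across the lists, 5 pairs of member peaks overlapped, at Sds, Pklr and Cpt1a. All 5 pairs were on the same strand, and the share of same-strand pairs over all overlapping pairs was not counted. In 3 of them an edge was identical to the base, and in the Pklr pair both edges were. Over all 11455 overlapping pairs of the 2 lists, 46.1% shared an edge and 6.29% shared both, so identical edges are frequent in these lists and not a feature of these genes.

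Distances to the nearest peak described the surroundings of the members. The nearest HEPA1-6 peak lay at a median distance of 20.6 kb over the 28 genes, against 9.82 kb over all protein-coding genes, and the nearest liver-labelled peak at 24.2 kb, against 36.1 kb. A HEPA1-6 peak within 10 kb was found for 10 members (35.7%, all genes 50.2%) and a liver-labelled one for 9 (32.1%, all genes 37.3%). Distances over 100 kb occurred for 8 members (28.6%, all genes 26.9%) and 12 members (42.9%, all genes 34.2%). Within 100 kb of a member there was a median of 3.5 HEPA1-6 peaks (4 over all genes) and of 1.5 liver-labelled peaks (1 over all genes). These values count peaks at the members themselves. For the 23 members without a HEPA1-6 peak, the nearest lay at a median of 42.4 kb, against 85.5 kb for all genes without one, and 34.8% against 46.4% had none within 100 kb. For the 23 without a liver-labelled peak the median was 107 kb, against 94.5 kb, and 52.2% against 48.7% had none within 100 kb. Without a peak of their own, members thus lay nearer to HEPA1-6 peaks than such genes in general and slightly farther from liver-labelled peaks, by these medians. At short range both lists went the same way. A peak within 10 kb was found for 21.7% of such members against 14.1% in HEPA1-6. In the liver-labelled list these shares were 17.4% and 10.9%.

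**Figure D5:**
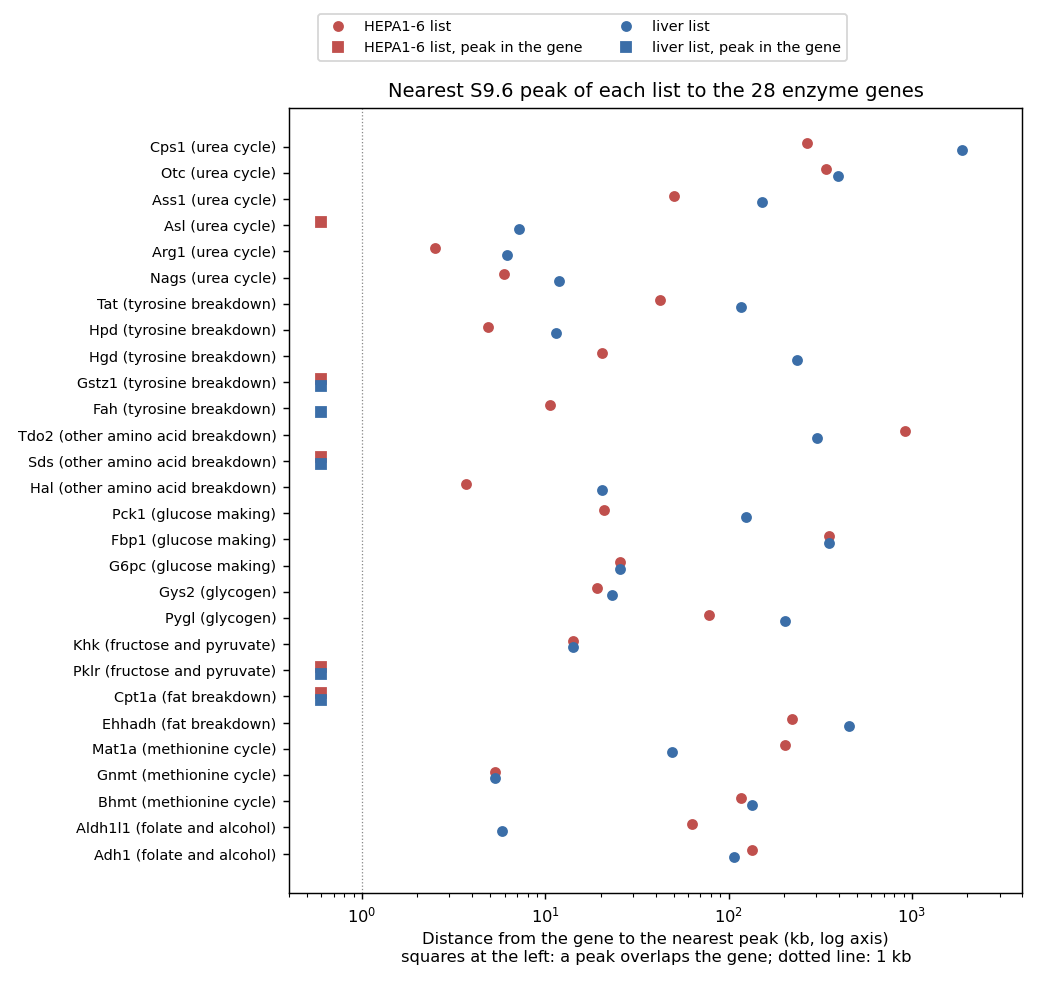
Distance from each of the 28 enzyme genes to the nearest peak (horizontal axis, kb, log axis) in the HEPA1-6 list (red) and the liver-labelled list (blue); squares at the left mark genes with a peak in the body, and the dotted line marks 1 kb. Tdo2 lies farthest from a HEPA1-6 peak and Cps1 from a liver-labelled peak, while Arg1, Hal, Hpd, Gnmt and Nags have a HEPA1-6 peak within 6 kb.

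Other genes of the same pathways were counted in the same way. Of 125 related metabolic genes, 61 (48.8%, 39.8 to 57.9%) held HEPA1-6 peaks, 44 (35.2%, 26.9 to 44.2%) held liver-labelled ones, and 36 held both. The shares of all genes, 42.0% and 29.7%, lay within these intervals. In the higher-scoring 50% of the liver-labelled list the count was 27 (21.6%), against 20.7% of all genes. Counting only peaks over no other gene, 48 (38.4%) held HEPA1-6 peaks, against 31.8% of all genes. For liver-labelled peaks that count was 31 (24.8%), against 21.9%. Which of the related genes named below share a peak with a neighbour was not listed. Of the 102 with a promoter window 51 were CpG-rich, against 6 of the 22 members with one. For the 51 that were not CpG-rich, the shares with a peak were 45.1% and 29.4%, and for the CpG-rich ones 56.9% and 43.1%. The intervals of the enzyme genes and of the related genes overlapped in the liver-labelled list. In HEPA1-6 they did not with flanks of 1 kb, for all peaks or stranded peaks alone, and did without flanks (6.06 to 36.9% and 36.7 to 54.7%). They also overlapped with flanks of 5 kb, the higher-scoring 50%, peak midpoints and peaks over no other gene. The same held for a HEPA1-6 list as short as the liver-labelled one.

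By pathway, genes around the urea cycle and ammonia held peaks most often: 9 of 12 did in HEPA1-6 cells and 7 of 12 among liver-labelled peaks. The interval for HEPA1-6 (42.8 to 94.5%) lay just above the share of all genes, 42.0%. Those of the other pathway lists in HEPA1-6 included that share, and all 5 in the liver-labelled list included the 29.7% of all genes there. The 7 with a peak in both were Slc25a13, the aspartate-glutamate carrier, Glul (glutamine synthetase), Glud1 (glutamate dehydrogenase), Oat, and the transaminases Got1, Got2 and Gpt. Slc25a13 alone held 13 HEPA1-6 peaks and 2 liver-labelled peaks, numbers not adjusted for gene length. Slc25a15, Slc25a12 and Arg2 of the same list held no peak in either list. In the cycle proper, Asl held 2 HEPA1-6 peaks, and Cps1, Otc, Ass1, Arg1 and Nags held none. For amino acid breakdown the counts were 14 and 10 of 37 (37.8% and 27.0%), with Pcbd1, Afmid, Aldh4a1, Agxt2, Mccc1 and Csad in both lists.

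Glucose, glycogen and fructose genes held a peak at 8 of 22 in each list, and Pcx, Ugp2, Phkg2, Pfkl, Tkfc, Sord and Galk1 did in both. Galk1, the galactokinase, had the highest scores of these, 141 (chr11:116004628-116015485) in HEPA1-6 and 81 (chr11:116004628-116009491) in the liver-labelled list. Whether these peaks reach other genes was not examined. Genes of fat breakdown and ketone bodies were covered at 17 of 29 (58.6%) in HEPA1-6 and at 9 of 29 (31.0%) by liver-labelled peaks. Acadvl, Acads, Acaa2, Crat and Acsl1 were among those in both. Of 25 genes of methionine, one-carbon and alcohol metabolism, 13 and 10 held a peak and 9 did in both lists. The highest-scoring of those 9 in the liver-labelled list were Aldh2 and Shmt2 (36 each), Mat2a (28) and Ahcy (22), followed by Gamt and Shmt1 (20 each).

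Some members have a related enzyme gene in the fixed lists, not always for the same reaction. From these, 9 pairs were chosen after their values were seen. Mat1a held no peak, while Mat2a, which makes S-adenosylmethionine in most other tissues, held 2 in each list. Pklr held 2 and 1 peaks, against 3 and 5 at Pkm, the pyruvate kinase of most other tissues. Adh1 held none, and Adh5 held 1 in HEPA1-6. Adh4 and Adh7, further alcohol dehydrogenases of the lists, were not paired and held no peak in either list. At Pck2, Arg2, Fbp2, Bhmt2, Sdsl and Aldh1l2 neither list had a peak, as at their partners other than Sds. The second gene thus held a peak in 3 of 9 pairs in HEPA1-6 and in 2 of 9 in the liver-labelled list, and the member in 2 of 9 in both. The HEPA1-6 count of second genes depends on the choice of Adh5 over Adh4 or Adh7.

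General glycolysis enzymes, which work in nearly all cells, were set beside the members. Of 14 such genes, 13 (92.9%, 66.1 to 99.8%) were covered in HEPA1-6, and 11 (78.6%, 49.2 to 95.3%) by liver-labelled peaks. Some of these peaks were wide, such as chr6:124801208-124827938 at Tpi1 in HEPA1-6. Peaks over no other gene were not counted for this list. The shares of all genes were 42.0% and 29.7%. The intervals of the glycolysis genes did not overlap those of the members in either list. Members and lists were chosen with earlier results of these data known, so this separation is not an independent check. The promoters of the glycolysis genes were CpG-rich in 12 of 14 cases (85.7%). Genes of proteins secreted by hepatocytes were also set beside the members, with a peak at 7 of 20 (15.4 to 59.2%) and 4 of 20 (5.73 to 43.7%). They had a CpG-rich promoter in 1 of 17 cases, against 10 of 12 (83.3%) for the proliferation markers with a window.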

How the data were processed

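Here 1 deposited list of peaks was used for each source. Per the submitters' processing notes, CASAVA 1.8.2, cutadapt, Bowtie2, bedtools, SAMtools and MACS2 were used on mm10, while their roles, the thresholds, the merging of libraries and the assignment of strands are not given in the sources used here. Each peak carries a deposited score, a whole number on a scale that is not stated, which was used to describe and rank peaks within a list only.

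Genes and promoter windows came from RefSeq tables of GRCm38.p6, the assembly of mm10. The gene table holds boundaries and no exons, so exon, intron and untranslated region were not assigned, and gene strands were those of the promoter windows. An overlap of 1 bp sufficed. Shares have 95% exact (Clopper-Pearson) binomial intervals, and with 1 list per source no test was possible. Gene lists named Mut under an older symbol (Mmut). All 28 members are named. Of the related genes, those with a peak in both lists are named (the 5 highest-scoring, with ties, where a list had more than 8), except for some that are not reported here. Members and lists were chosen with earlier results of these data known. Interval functions were checked on simulated peaks. Python 3.11.15, pandas 2.3.3, NumPy 2.4.6, SciPy 1.17.1 and matplotlib 3.10.9 were used. Alternatives varied the flank, score threshold, list length, neighbours, strand, midpoint and overlap.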

Additional observations from a re-analysis of the deposited data

How the results depend on the processing

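Of 32 alternatives for 5 counts, 26 stayed within 1.5 times the reported count and 6 moved. With flanks of 5 kb, 8 members held a HEPA1-6 peak in place of 5 (Hpd, Arg1 and Hal were added, by peaks over Setd1b, Med23 and Lta4h), and the liver-labelled count remained at 5. Without peaks that overlap another gene, the liver-labelled count was 2 (Fah and Cpt1a). With peaks on the strand of the gene alone, an alternative chosen after seeing the data in which genes without a known strand count as empty, the counts were 3 (HEPA1-6) and 2 (liver-labelled). The number of members with a peak in both lists, 4, was 3 where the peaks had to overlap and 1 (Pklr) where they had to overlap by 50% of both. In the higher-scoring 50% of the liver-labelled list, 27 of the related genes held a peak in place of 44. The interval of the members lay below the share of all genes in HEPA1-6 with flanks of 1 kb, without flanks, with stranded peaks and by peak midpoints. It included that share with flanks of 5 kb, the higher-scoring 50%, the shorter list and peaks over no other gene. A HEPA1-6 list as short as the liver-labelled one left the same 5 members. No paired analysis was possible because each source has 1 pooled peak list, and for the same reason no replicate was left out. The unknown depth limits every absence: a peak below the threshold is not listed.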
